A study of Mus musculus with 16 samples.

Results

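The 8 genes Zfp407, Zfp710, Zfp423, Zfp521, Zfp536, Zfp462, Zfp704 and Zfpm2 encode zinc finger factors and lie outside the KRAB zinc finger clusters. They are 8 of the 34610 genes whose bodies were counted. They were chosen with their label on day 8 and day 0 already known, Zfp710 because it was higher and Zfp407 because it was lower on day 8, so that contrast is described below and not tested. The label is a CpG position, or a read at it, left by the maintenance DNA methyltransferase DNMT1 in E14TG2a, a mouse embryonic stem cell line. It reports where that enzyme acted on DNA and is not a measure of expression.

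The labelled cells carry a heterozygous Dnmt1 N1580A knock-in, whose enzyme accepts Ado-6-azide in place of its normal methyl donor. All cells, wild-type cells included, were electroporated with the azide at 1 mM, and genomic DNA was taken 3 h later. Het is a set of 3 knock-in libraries whose culture state the labels do not give. The day series holds 2 knock-in libraries each of naive cells, grown with LIF and the inhibitors CHIR99021 and PD0325901 (day 0), and of cells kept for 2, 4 and 8 days in LIF without the inhibitors. The controls are 3 libraries of wild-type Dnmt1 cells and 2 called wild-type control, and the labels do not say how these differ. Whether replicates came from separate cultures is not in the labels, so every p-value covers only the spread between these libraries, which may be technical.

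Zinc finger factors of the C2H2 kind carry rows of small folds, each held together by a zinc ion, that read short stretches of DNA. Zfpm2, also called FOG2, differs in that it works as a partner of GATA factors and is needed in heart development. Zfp423 and its paralog Zfp521 bind EBF factors, and Zfp423 is known from fat cell precursors and the cerebellum. Zfp462 is known to restrain lineage genes in embryonic stem cells, Zfp536 to hold back neuronal differentiation, and Zfp407 to act on glucose uptake in fat cells. DNMT1 copies CpG methylation onto the new strand after replication, and start sites rich in CpGs are usually free of methylation while gene bodies usually carry it.

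The 11 knock-in libraries held 4202118 to 25175264 reads at 390158 to 3423423 distinct positions, with day 0 at the low end of both. Wild-type and wild-type control libraries held 1640 to 22890 reads. The 8 gene bodies took 0.128% to 0.144% of the positions in every knock-in library. Their summed share was 0.140% and 0.143% on day 2 and 0.128% and 0.130% on day 4, and some single genes varied more. They held 9, 0 and 6 positions in the WT libraries and 14 and 1 in the wild-type control libraries, and 0 of 960 positions allows a share of up to 0.313%. The knock-in libraries held 546 to 4677 positions in the 8 genes, and no wild-type library held more than 5 in any 1 of them. Intervals and limits cover counting error only, since reads carry no molecular identifiers.

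Start-site sequence was at hand for 3 of the 8 genes, and it shows how many CpGs were there to be labelled. The 4 stretches below run from 250 bases before to 50 bases after an annotated start, in RefSeq's GRCm38.p6 (mm10), 5′ to 3′ on the gene's strand, with each CpG in capitals. All 49281 positions listed in such stretches genome-wide were the C of a CpG, so the capitals are the only places where label could be listed. The Zfp710 stretch lies at chr7:80024564-80024863 on the plus strand, Zfp536 at chr7:37769703-37770002, the outer Zfp423 start at chr8:87959546-87959845 and an inner Zfp423 start at chr8:87804390-87804689, the last 3 on the minus strand.
Zfp710: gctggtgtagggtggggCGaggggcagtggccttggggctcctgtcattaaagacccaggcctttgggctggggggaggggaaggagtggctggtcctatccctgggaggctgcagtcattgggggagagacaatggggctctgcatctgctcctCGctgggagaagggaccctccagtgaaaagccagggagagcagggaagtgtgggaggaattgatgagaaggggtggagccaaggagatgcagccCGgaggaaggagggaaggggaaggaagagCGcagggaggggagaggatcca
Zfp536: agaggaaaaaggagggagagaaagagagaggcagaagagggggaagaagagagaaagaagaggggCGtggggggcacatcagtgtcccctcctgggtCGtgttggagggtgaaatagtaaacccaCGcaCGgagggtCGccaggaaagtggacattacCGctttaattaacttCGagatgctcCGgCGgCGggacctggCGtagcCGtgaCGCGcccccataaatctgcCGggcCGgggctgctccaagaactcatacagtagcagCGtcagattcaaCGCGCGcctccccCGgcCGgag
Zfp423 outer start: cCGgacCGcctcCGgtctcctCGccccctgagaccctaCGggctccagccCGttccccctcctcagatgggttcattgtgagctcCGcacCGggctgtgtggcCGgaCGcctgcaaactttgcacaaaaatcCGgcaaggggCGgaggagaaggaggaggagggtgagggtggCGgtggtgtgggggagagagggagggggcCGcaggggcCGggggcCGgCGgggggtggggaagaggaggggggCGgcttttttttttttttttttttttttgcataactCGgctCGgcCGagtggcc
Zfp423 inner start: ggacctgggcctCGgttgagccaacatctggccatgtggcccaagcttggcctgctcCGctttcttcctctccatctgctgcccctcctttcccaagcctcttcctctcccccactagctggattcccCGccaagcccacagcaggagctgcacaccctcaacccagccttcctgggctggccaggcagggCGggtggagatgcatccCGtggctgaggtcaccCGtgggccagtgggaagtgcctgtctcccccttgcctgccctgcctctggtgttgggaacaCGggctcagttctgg

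Both starts that are rich in CpGs were nearly bare. Of 22 CpGs at the Zfp536 start, 1 was listed, 29 bases after the start site, in day 8 replicate 1 alone with 11 reads. None of the 21 CpGs at the outer Zfp423 start was listed in any of 11 knock-in libraries, which allows a share of up to 14.3%. That is the common state, since 80.7% of 8701 starts with 20 or more CpGs had none listed and 1.36% of their CpGs were. The inner Zfp423 start has 7 CpGs, and 6 were listed in at least 1 library, as 6 or more were at 26.2% of 1134 starts with 7 CpGs. Its CpG 41 bases before the start was listed in 4 libraries, the most of the 7. The Zfp710 start is poor in CpGs and was still bare. None of its 4 CpGs was listed, against 61.6% of the CpGs at 2186 starts with 4, of which 10.5% also had none. With 4 CpGs, 0 allows a share of up to 75%.

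The bare stretch at Zfp710 was wider than its 300 bases. No library listed a position within 1 kb of that start, where the density is then at most 0.0738 times that of the gene body. Within 2 kb there were 10 positions, a ratio of 0.123. Bin 1 of 20 equal bins of the gene body, chr7:80024814-80028209, held 0 of the gene's 1381 positions, a share of up to 0.217%. At the outer Zfp423 start the 1 kb window also held 0 positions, at most 0.0783 times the body. The Zfp536 start had 7 positions (ratio 0.242), whereas the inner Zfp423 start had 85 (ratio 2.22).

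Strand was not at hand for the other 5 genes, so their ends are given by coordinate. In 5 of the 8 genes 1 end held under 0.3 times the density of the body within 1 kb. These were the lower end of Zfp710 (0 positions) and the higher ends of Zfp704 (2 positions), Zfp407 (3), Zfp521 (4) and Zfp423 (9). Zfp462 came next with 10 positions at its lower end, a ratio of 0.319. Zfp536 and Zfpm2 had no depleted end by this measure, with ratios of 0.897 and 0.926 at the lesser end. The higher end of Zfp536, 37774039, lies outside the 1 kb window of its start site at 37769752, where the ratio was 0.242. Within 5 kb of that end the ratio was 0.470. The higher end of Zfp423, 87962053, likewise lies outside the 1 kb window of its outer start at 87959595, which held 0 positions. Among 2424 long protein-coding genes the median ratio of the lesser end was 0.459, and 5.32% had an end with 0 positions. Their share with an end under 0.3 is not given here, so whether 5 of 8 is uncommon was not tested. The lower end of Zfp407 stood the other way, with 79 positions and 3.31 times the density of its body, in all 11 libraries.

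**Figure D1:**
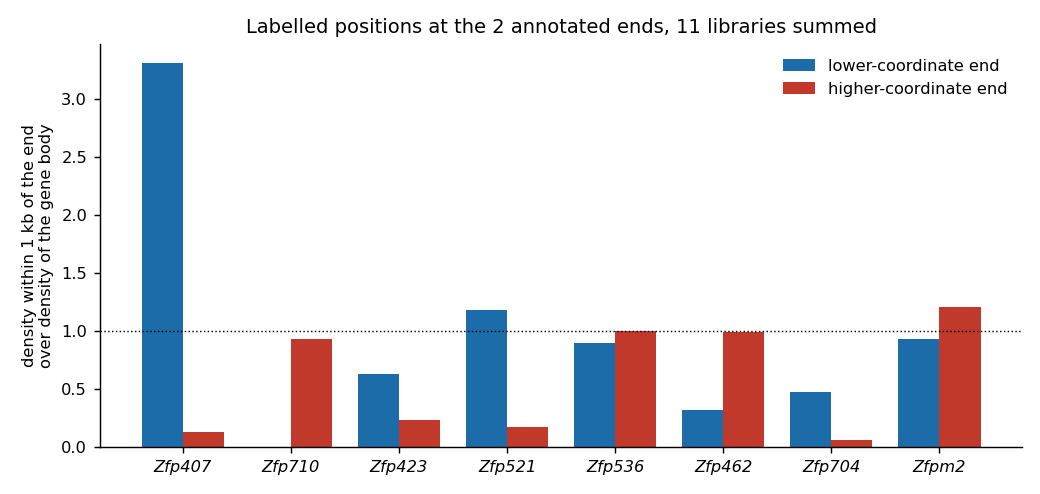
Density of labelled positions within 1 kb of each annotated gene end, divided by the density of the whole gene body (y axis, no unit), summed over 11 knock-in libraries, for the 8 genes (x axis). Zfp710 has no bar at its lower-coordinate end, and Zfp407 reaches 3.31 at its lower-coordinate end.

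Levels of different genes are compared below as distinct positions per kb of gene body and per 1000000 positions of the library, here called density. It is relative to all label in the library, and per base, not per CpG. The median density of protein-coding genes of at least 100 kb was 0.464 to 0.474 in every knock-in group. Over all 21883 protein-coding genes, short ones included, it was 0.548 and 0.534 on day 8 and 0.397 and 0.387 on day 0. The day 0 libraries held 390158 and 407127 positions, against 3065096 and 2602884 on day 8, so short genes held few on day 0. Whether this depth accounts for the lower median was not tested.

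Zfp710 (chr7:80024814-80092751) had the largest difference between day 8 and day 0 of the 8 genes. It is the shortest of them, at 67.9 kb, and shares bases with the lncRNA genes Gm51449 and Gm21057. Its density was 0.49 and 0.47 in naive cells, 0.86 and 0.743 by day 2, 0.942 and 0.828 by day 4, and 1.02 and 0.961 by day 8, with 1.06, 0.985 and 1.15 in Het. Both day 0 libraries were below every later library, while the day 2 and day 4 libraries overlapped. Among 2516 protein-coding genes of 50 kb to under 100 kb, its own length class, the median density was 0.53 and 0.528 on day 8 and 0.49 and 0.492 on day 0. The raw counts in Zfp710 were 212 and 170 positions on day 8 and 13 and 13 on day 0. The fitted log2 change on day 8 against day 0 was 0.98 ± 0.26 (SE) in positions and 1.67 ± 0.20 in reads. Reads per position in Zfp710 were 6.77 and 7.08 on day 0, the lowest of the 8 genes there, when the whole libraries had 10.8 and 11.98. On day 8 they were 4.16 and 3.93, against 4.11 and 4.05 for the whole libraries. By density it exceeded 97.5% of protein-coding genes of at least 100 kb, all longer than it, in Het and 50.9% on day 0.

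Zfp407 (chr18:84207701-84589539) went the other way. Its density was 0.826 and 0.785 in naive cells, 0.601 and 0.639 by day 2, 0.532 and 0.518 by day 4, and 0.543 and 0.538 by day 8, with 0.504, 0.541 and 0.567 in Het. Every library from day 2 on lay below both day 0 libraries, and both day 4 libraries lay below both day 2 libraries. It held 635 and 535 positions on day 8 and 123 and 122 on day 0, so the lower density is a smaller share of a larger total. The log2 change on day 8 against day 0 was -0.64 ± 0.11 in positions and -0.77 ± 0.10 in reads. Zfp407 exceeded 83% of long protein-coding genes on day 0 and 57.2% on day 4.

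Zfpm2 (chr15:40655042-41104592) had the lowest density of the 8 genes in every knock-in group. It stood at 0.137 and 0.164 in naive cells, 0.26 and 0.238 by day 2, 0.231 and 0.249 by day 4, 0.244 and 0.283 by day 8 and 0.257, 0.276 and 0.249 in Het. Its 24 and 30 positions on day 0 were below all later libraries in density, with a log2 change on day 8 against day 0 of 0.73 ± 0.19 in positions and 0.35 ± 0.14 in reads. Zfp704 (chr3:9427010-9610085) had 51 and 26 positions on day 0, a density of 0.714 and 0.349. Its day 0 libraries thus differed from each other more than any later library differed from another, and the log2 change in positions on day 8 against day 0, 0.45 ± 0.16 with both, was 1.08 without replicate 1 of day 0 and 0.06 without its replicate 2.

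Zfp536 (chr7:37318023-37774039) and Zfp521 (chr18:13687013-13972749) were lower on days 4 and 8 than on day 0, by a smaller step than Zfp407, and Zfp521 also on day 2. The densities of Zfp536 were 0.753 and 0.808 in naive cells, 0.774 and 0.788 by day 2, 0.658 and 0.636 by day 4, and 0.697 and 0.647 by day 8, with 0.649, 0.625 and 0.684 in Het. Those of Zfp521 were 0.61 and 0.628, 0.572 and 0.565, 0.49 and 0.477, and 0.573 and 0.515 on the same days, with 0.55, 0.544 and 0.527 in Het. In both genes the day 4 libraries lay below the day 0 and day 2 libraries without overlap. The log2 change on day 8 against day 0 was -0.28 ± 0.10 in positions and -0.31 ± 0.09 in reads for Zfp536, and -0.25 ± 0.13 and -0.30 ± 0.12 for Zfp521.

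Zfp423 (chr8:87661810-87962053) and Zfp462 (chr4:54944491-55083563) differed little between day 8 and day 0. Zfp423 ranged over 0.72 to 0.948 in naive cells, 0.817 to 0.833 by day 2, 0.835 to 0.92 by day 4, 0.859 to 0.945 by day 8 and 0.907 to 0.94 in Het. Zfp462 ranged over 0.7 to 0.777, 0.709 to 0.825, 0.66 to 0.72 and 0.718 to 0.738 on these days, and 0.722 to 0.777 in Het. Their log2 changes in positions on day 8 against day 0 were 0.06 ± 0.11 and -0.09 ± 0.17. So the paralogs Zfp423 and Zfp521, of like length, differed in density in every knock-in group, with Zfp423 the higher.

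**Figure D2:**
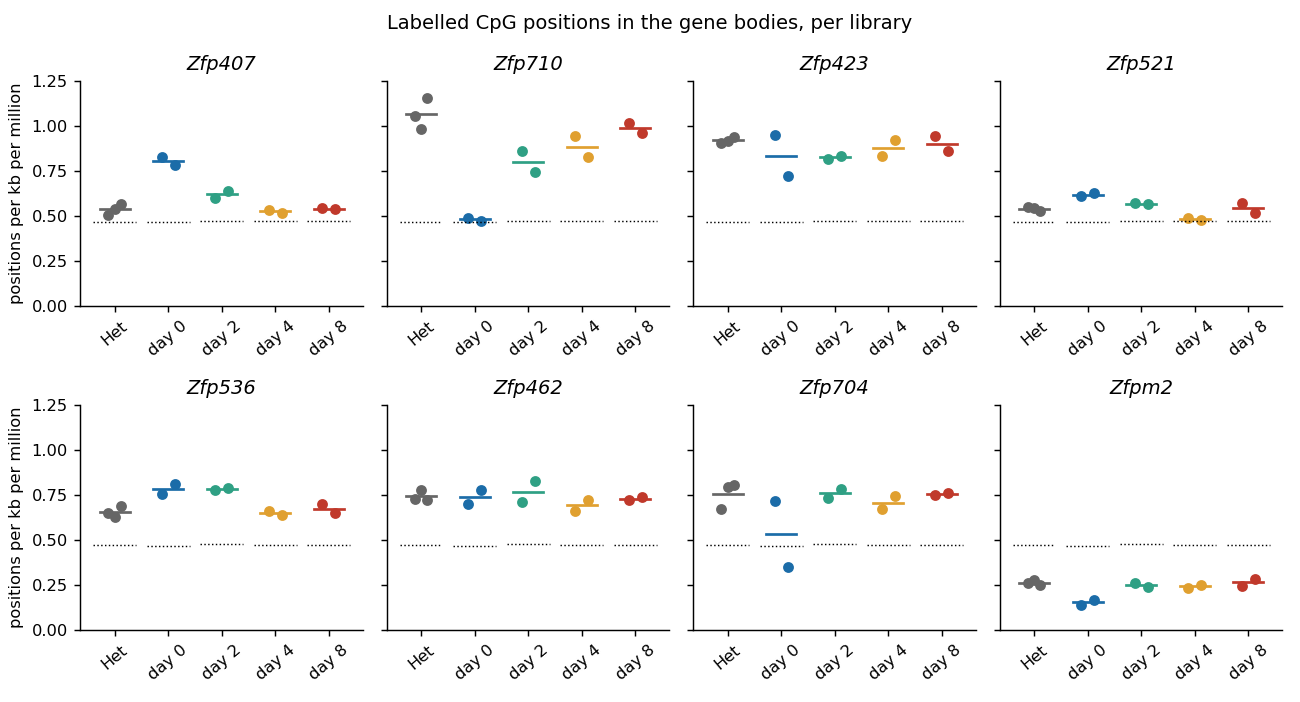
Density of labelled positions (y axis, positions per kb of gene body per 1000000 listed) in each Het and day library (points) with the group mean (bar), and the median of long protein-coding genes (dotted line). Within their own panels Zfp710 is lowest and Zfp407 highest on day 0, and Zfpm2 lies below the dotted line in every group.

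Over all genes, day 8 against day 0 had 1.82% of 30245 genes called higher and 0.717% lower in reads at an adjusted p of 0.05 (edgeR's quasi-likelihood test). In positions these were 2.23% and 2.78% of 20412 genes. The members were chosen on this contrast, so no call is given for them. Day 2 and day 4 share the day 0 libraries with day 8, so their changes are set side by side only. For Zfp710 the log2 change in positions against day 0 was 0.70 by day 2, 0.79 by day 4 and 0.98 by day 8, and for Zfp407 it was -0.41, -0.70 and -0.64.

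The order of the genes was nearly the same on day 4, on day 8 and in Het. In these groups it ran Zfp710, Zfp423, Zfp704, Zfp462 and Zfp536 from the top, with Zfpm2 last and Zfp407 and Zfp521 between. Zfp407 and Zfp521 overlapped on day 8 and in Het, as did Zfp704 and Zfp462 on day 4 and in Het, and Zfp710 and Zfp423 on day 4. On day 2 the order was Zfp423, Zfp710, Zfp536, Zfp462, Zfp704, Zfp407, Zfp521 and Zfpm2. Each of the first 5 overlapped with the next among them, so their order on day 2 is not settled. On day 0 the order was Zfp423, Zfp407, Zfp536, Zfp462, Zfp521, Zfp704, Zfp710 and Zfpm2. There each of the first 4 overlapped with the next among them, and Zfp704 overlapped with both Zfp521 and Zfp710.

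The comparison of day 4 with day 2 uses libraries outside the day 8 against day 0 contrast. The genes and tests were still chosen with earlier results of these data known, so it may not be independent of that choice. Zfp536 fell, and it was the 1 member of 8 called, in positions, where 0.0686% of 20412 genes were called lower and 0.0588% higher by edgeR's quasi-likelihood test. Zfp536 had 628 and 747 positions on day 4 and 447 and 470 on day 2. In counts per 1000000 after TMM scaling (CPM) these were 482 ± 12.3 CPM on day 4 and 600 ± 5.29 on day 2 (SD, n = 2 each), a log2 change of -0.32 ± 0.07 (SE, adjusted p = 0.00496). The call did not hold when any 1 of the 4 libraries was left out (log2 change -0.34 to -0.28, adjusted p 0.0948 to 0.452) or with DESeq2 (log2 change -0.31).

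None of the other 7 genes passed. Zfp407 came nearest, with 328 ± 6.31 CPM on day 4 and 399 ± 15.3 on day 2 (log2 change -0.29 ± 0.08, adjusted p = 0.0966), and it passed when only protein-coding genes were tested (adjusted p = 0.0426). The change was -0.28 ± 0.09 for Zfp521 (adjusted p = 0.276), and lay between -0.19 and 0.09 for the remaining 5 with adjusted p of 0.676 or more. Zfp710, the gene furthest up on day 8 against day 0, had 0.09 ± 0.15 here (adjusted p = 0.921).

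In 5 of 8 genes both day 4 libraries lay below both day 2 libraries in TMM-scaled positions, namely Zfp407, Zfp521, Zfp536, Zfp462 and Zfp704. The share of all genes tested was 20.1%, and 934 of 2693 genes of at least 100 kb did so. None of the 8 lay above without overlap, where 19.3% of all genes did. In reads 4 of 8 lay below, where 17.7% of all genes did, and 0 lay above, where 19.8% did. The median log2 change in positions was -0.16 over the 8 genes, -0.06 over genes of at least 100 kb and -0.01 over all genes. In reads edgeR called 0 of 30245 genes, with 706 at an unadjusted p under 0.05, while DESeq2 called 34, among them Zfp407 (log2 change -0.39) and Zfp536 (-0.36), both at an adjusted p of 0.00338.

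The same contrast was read in 43 other C2H2 factor genes. Of these 43, 0 were called higher and 1 lower in positions, Zbtb7c, a BTB zinc finger factor, with 406 CPM on day 4 and 509 on day 2 (log2 change -0.33 ± 0.07, adjusted p = 0.0067). Without overlap 20 of 43 were lower and 6 higher, and their median log2 change was -0.12. In 6 genes of the Foxp and SoxD families 1 was called lower, Sox5, named after its value was seen (log2 change -0.29 ± 0.05, adjusted p = 0.00018). That the 8 differ from these lists was not tested.

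Het against day 4 was the second comparison outside the day 8 against day 0 contrast, with the same limit. No member was called, in positions (0 of 23244 genes, 930 at an unadjusted p under 0.05) or in reads (0.00322% of 31077 genes, 1 gene). All 8 had a log2 change above 0, from 0.02 to 0.27 in positions. The largest was that of Zfp710, with 117 ± 8.42 CPM in Het and 97.3 ± 9.07 on day 4 (SD, n = 3 and 2, log2 change 0.27 ± 0.10, adjusted p = 0.999). Zfp710 and Zfp521 were the 2 genes whose 3 Het libraries all lay above both day 4 libraries, where 10.4% of all genes did, and none lay below, where 10.3% did. In reads 4 of 8 lay above (10.4% of all genes) and 0 below (9.94%). Zfp536 lay closest to 0, at 0.02 ± 0.05. The median log2 change in positions was 0.12 over the 8 genes, 0.0048 over genes of at least 100 kb and 0.0019 over all genes. The share of all genes above 0 is not given here, so whether 8 of 8 is uncommon was not tested. The same 2 day 4 libraries enter the comparison with day 2, so low values there affect both comparisons. On day 8 against day 4, 6 of 8 genes were higher without overlap in positions and 0 lower. Of all 20412 genes 3612 were higher and 3357 lower, and of 2693 genes of at least 100 kb 629 and 339. The series' design text lists the Het analysis and the cell state series apart and no label gives a batch, so a difference between experiments cannot be told apart from one between these groups.

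**Figure D3:**
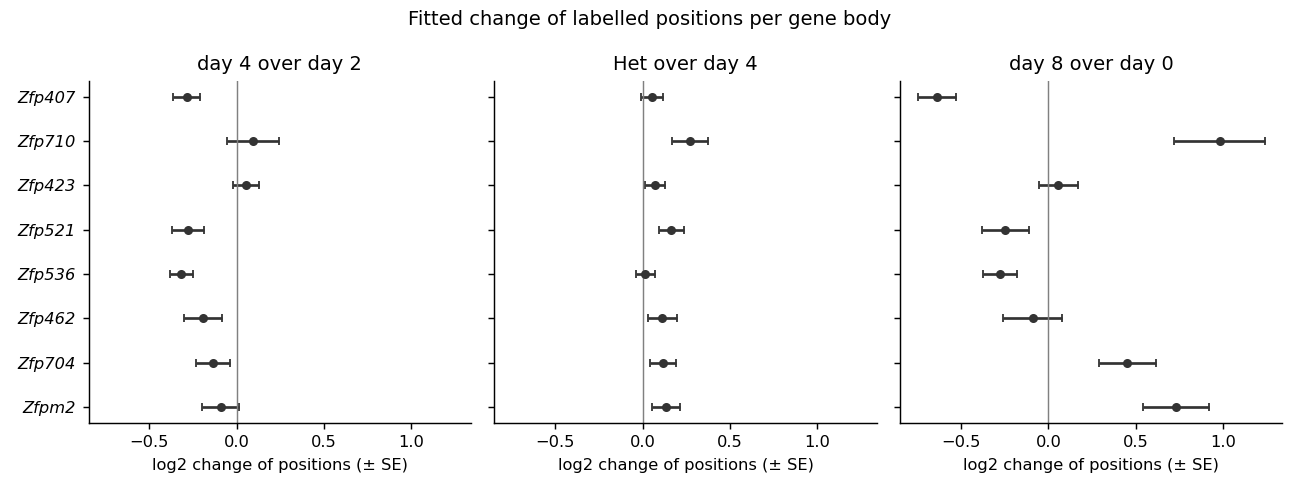
Fitted log2 change of distinct positions per gene body (x axis) for the 8 genes (y axis), with the standard error as bars, for day 4 over day 2, Het over day 4 and day 8 over day 0. The last panel is the contrast that chose the genes, and its values carry no call. In the other 2 panels Zfp536 at -0.32 for day 4 over day 2 is the only value with an adjusted p under 0.05.

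Label was not spread evenly along the genes. The mean density of Zfp407 on day 0 was above that of every later group and Het in bins 1, 2 and 4 of 4 equal bins, by most in bin 1. In bin 1, at the lower coordinates, it was 1.29 ± 0.04 in naive cells, 0.906 ± 0.078 by day 2, 0.695 ± 0.035 by day 4 and 0.699 ± 0.007 by day 8 (SD, n = 2 each), and 0.694 ± 0.041 in Het (n = 3). In bin 2 it was 0.92 ± 0.009 in naive cells, 0.708 ± 0.030, 0.517 ± 0.023 and 0.56 ± 0.035 on days 2, 4 and 8, and 0.556 ± 0.087 in Het. In bin 4 it was 0.551 ± 0.058, 0.378 ± 0.003, 0.437 ± 0.020 and 0.428 ± 0.013 on days 0, 2, 4 and 8, and 0.448 ± 0.035 in Het. Bin 3 differed from these, with 0.463 ± 0.218 on day 0 and means of 0.451 to 0.488 on the later days and in Het. Bin 1 held 32.4% of the gene's positions in Het and 40% on day 0. The densest of 20 bins of Zfp407, chr18:84207701-84226791, stood at 2.42 and 1.8 on day 0, 1.45 and 1.44 on day 2 and 0.813 to 0.949 in the 7 later and Het libraries. The whole gene held 123 and 122 positions on day 0, so the day 0 values of this bin rest on fewer.

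Label in Zfp407 thus leaned to the lower coordinates, and its end with few positions was the higher one (3 within 1 kb, ratio 0.126). Strand was not at hand for Zfp407, so this lean was not placed relative to a start. In Zfp710 the label leaned to the higher coordinates, the end far from its start. Bin 4 of 4 had 0.742 ± 0.231 in naive cells, 1.08 ± 0.315 by day 2, 1.45 ± 0.141 by day 4 and 1.38 ± 0.027 by day 8, and 1.41 ± 0.112 in Het. Bin 1 had 0.223 ± 0.111, 0.435 ± 0.042, 0.525 ± 0.066 and 0.534 ± 0.076 on these days, and 0.462 ± 0.171 in Het. All 4 bins had a lower mean on day 0 than on every later day, but the day 0 values rest on 3, 6, 7 and 10 positions over both libraries. Of 20 bins, chr7:80079164-80082560 held 11.8% of the gene's positions, the most of any.

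Zfp462 had the sharpest peak of the 8 genes. Bin 10 of 20, chr4:55007073-55014026, held 17.2% of 2181 positions, where an even spread gives 5%. That density was 3.69 and 3.89 in naive cells, 2.84 and 3.41 by day 2, 2.61 and 2.46 by day 4, 2.53 and 2.32 by day 8 and 1.75, 2.65 and 2.01 in Het. Every library from day 2 on thus lay below both day 0 libraries there, which was not so for the whole gene. On day 0 the whole gene held 38 and 44 positions, so the day 0 values of this bin rest on fewer still. Bin 1 of Zfp462 held 12 positions, 0.55%. Zfpm2 was densest in bin 20 (8.99%), Zfp521 in bin 12 (8.76%), Zfp423 in bin 8 (7.48%), Zfp704 in bin 3 (7.18%) and Zfp536 in bin 19 (6.92%). These bins were picked by their values, so their height is a description.

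**Figure D4:**
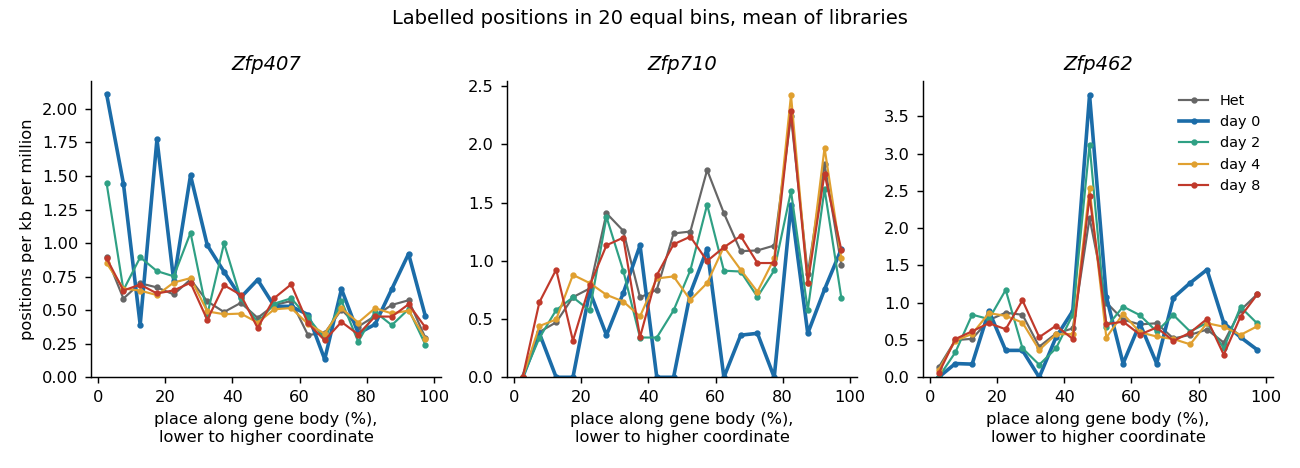
Mean density of labelled positions (y axis, positions per kb per 1000000 listed) in 20 equal bins along Zfp407, Zfp710 and Zfp462 (x axis, percent of the gene body from lower to higher coordinate), by group. Day 0 is highest over the left part of Zfp407, all groups are at 0 in the first bin of Zfp710, and the means of all groups peak in bin 10 of Zfp462.

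Single CpGs recurred between libraries to an extent that differed among the genes. Of the 2828 positions listed in Zfp423 in any of the 11 knock-in libraries, 11.2% were in 4 or more, against 6.98% genome-wide. The share was 10.7% of 685 in Zfp710, 10.3% of 1103 in Zfp462 and 2.92% of 1539 in Zfpm2, the gene with the lowest density. No position in the 8 genes was listed in more than 7 of the 11. On day 0 the 13 and 13 positions in Zfp710 had none in common, and 7 of 123 and 122 in Zfp407 were common, 5.69% and 5.74%, where 5.16% and 4.94% were genome-wide. On day 8 the replicates had 47 common positions of 212 and 170 in Zfp710, and 123 of 635 and 535 in Zfp407.

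Among protein-coding genes of at least 100 kb, the likeness to Zfp710 was taken as the root mean square difference of centred log2 density over 11 libraries, which all genes share, with a median of 0.412 over 2428 genes. Tcf7l1, a repressor of Wnt targets in embryonic stem cells, was closest at 0.111, with a mean density of 1.08 in Het and 0.555, 0.865, 1.04 and 0.984 on days 0, 2, 4 and 8. Pcdhga2 (0.129) and Pcdhga1 (0.131) followed, which are protocadherin genes that share most of their bases. For Zfp407 the closest were Enox1 (0.0516), Ntrk2, the receptor for BDNF (0.0539), and Wwox (0.0572), with a median of 0.273 over 2427 genes. Wwox had a density of 0.876 in Het and 1.31, 0.983, 0.888 and 0.864 on days 0, 2, 4 and 8.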

How the data were processed

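TOP-seq libraries of E14TG2a genomic DNA were read on an Ion Proton, per the labels' protocols. The submitters' processing notes name BWA 0.7.17-r1188, SAMtools 1.12, cutadapt 4.4 and build mm10. Parameters and duplicate handling are not given in the sources. Each library has a table deposited by the authors, which gives a whole-number read count for every listed CpG, with no normalization. Unlisted positions were taken as 0.

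Reads and distinct positions were summed over RefSeq GRCm38.p6 gene bodies (21883 protein-coding, 12727 lncRNA), each gene counting all that lies in it, so reads of overlapping or antisense genes are not told apart. Both quantities were tested by edgeR 4.0.16 in R 4.3.3 (filterByExpr, TMM, glmQLFit, glmQLFTest, Benjamini-Hochberg at 0.05), over 8 day libraries, or 11 with Het. TMM factors lay between 0.973 and 1.02. The common coefficient of variation, edgeR's shared estimate of spread beyond counting error, was 0.00988 in both fits of positions. That is the lowest value its default search allows, so it is a floor and not a measured spread. In reads this coefficient was 0.488 with 8 libraries and 0.449 with 11. In positions the floor adds little to counting error. The code was tested on simulated data. Alternatives used DESeq2 1.42.0, other scalings, filters and left-out libraries. Profiles used scipy 1.17.1, pandas 2.3.3 and Python 3.11.15. Shares of 0 carry a limit of 3 counts.

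The members, the lists and the tests were chosen with earlier results of these data known. Named genes are the members, called C2H2 factors with the largest changes at or above median abundance (2 each way at most), and the 3 genes of at least 100 kb most like Zfp710 and Zfp407.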

Additional observations from a re-analysis of the deposited data

How the results depend on the processing

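In day 4 against day 2, the 26 genes called in positions were 49 with protein-coding genes only, 15 without overlapped bases, 0 with DESeq2 (477 at an unadjusted p under 0.05) and 0 to 6 with 1 library left out. The 1 member called was 2, 1, 0 and 0 under these. In reads DESeq2 called 34 genes and 2 members, where edgeR called 0. In day 8 against day 0, the 767 genes in reads were 142 with a replicate block, 1496 with at most 5 reads per position, 5292 with DESeq2, 0 with only the 2 groups fitted (4063 at an unadjusted p under 0.05) and 0 to 7650 with 1 library left out. The 1022 in positions were 461 with DESeq2, 429 with only the 2 groups and 179 to 770 with 1 library left out. In Het against day 4, the 1 gene in reads was 2 with DESeq2 and 0 with a replicate block, protein-coding genes only, at most 5 reads per position, or any library left out. The 0 in positions were 7 with a replicate block and 0 to 6 with 1 library left out. Without the day 0 libraries, an alternative chosen after seeing the data, the counts were 28 and 0 genes in positions and 0 and 1 in reads for day 4 against day 2 and Het against day 4, and Zfp536 passed (adjusted p = 0.00252). Within 2 kb in place of 1 kb, the ratio to the body was 1.71 at the inner Zfp423 start and 0.123 at the Zfp710 start. The causes were not tested.

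Same-numbered replicates of the day groups did not deviate together over all genes tested (correlations -0.01 to 0.02). Counting error can hide a pairing here, so the check cannot exclude that the numbers pair samples. In Het against day 4 the block also joined Het libraries to day libraries of the same number. The design text lists these apart, and the check did not cover Het. The replicate block moved the other counts by less than 1.5 times, to 25 genes and 1 member for day 4 against day 2 in positions.

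Of 448 member values of day 4 against day 2 and Het against day 4 under alternatives, 12 changed sign, none of them called. In day 4 against day 2 in reads, these were Zfpm2 with library totals (0.0145), Zfp710 without overlapped bases (-0.0672), and with 1 library left out Zfpm2 (-0.0635 to 0.0111), Zfp710 (-0.115 to 0.154) and Zfp462 (-0.325 to 0.00253). In positions, leaving out 1 library gave Zfp710 -0.0141 to 0.198 and Zfp423 -0.0197 to 0.115. In Het against day 4, Zfp536 had -0.00691 in reads and -0.0109 in positions with the replicate block, and -0.00666 to 0.0844 and -0.0148 to 0.0593 with 1 library left out. In day 8 against day 0, 7 of 200 changed sign: without replicate 2 of day 0, Zfp423 (-0.0734 in reads, -0.0862 in positions), Zfp462 (0.135 and 0.0339) and Zfp704 (-0.0293 in reads), and Zfp423 in reads without replicate 1 of day 8 (-0.0239) and with protein-coding genes only (-0.00898). Depth limits day 0 most, where Zfp710 rests on 13 positions a library.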
